A study of Homo sapiens with 8 samples.

Results

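The extracellular matrix and mesenchymal genes examined here are 48 genes taken by symbol. They encode collagens, laminins, matrix glycoproteins, the enzymes that cut or crosslink the matrix, the integrins and CD44 that hold cells to it, and cadherins, vimentin and transcription factors of the epithelial to mesenchymal transition (EMT). On the Affymetrix HG-U133A array, which reads a gene by 1 or more probe sets, 47 of the 48 had at least 1 probe set, of 11963 genes named on the whole array. LAMA3 was not analysed here. The 47 genes had 118 probe sets, and 83 probe sets of 42 genes were bright enough to be tested.

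The cells were a human non-small cell lung cancer (NSCLC) adenocarcinoma line that the labels do not name, grown in DMEM with 10% FBS. They were exposed for 24 h to the combination of rosiglitazone and carboplatin (the labels do not restate its doses), to 1 µM rosiglitazone, to 10 µM carboplatin, or to control medium, which the design text calls DMSO/control. Rosiglitazone is a ligand of the nuclear receptor PPARγ, carboplatin crosslinks DNA, and the series title concerns synergy between such drugs. Each group had 2 arrays. The labels do not say whether these came from separate cultures, so p-values cover the spread between arrays only, and that spread may be technical.

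PPARγ binds DNA together with the receptor RXR at a repeated hexamer and is best known for switching on genes of lipid storage and use. The matrix of an epithelial tumour cell has a basement membrane part, built of laminins and the network-forming collagen IV, and an interstitial part of fibrillar collagens, fibronectin and the beaded collagen VI. Integrins bind these proteins across the plasma membrane. In EMT, cells lose E-cadherin and gain N-cadherin, vimentin and fibronectin.

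The genes whose signal changed with rosiglitazone, described below, include COL6A2, FN1, COL4A1 and COL5A1. The 250 bases before the start of these genes are shown so that the letters near their starts can be read beside their direction of change. COL6A1 and EFEMP1, which also changed, have no window in the promoter set used, and CSGALNACT1 is not shown here. The sequences are those of RefSeq on GRCh38.p14, 5′ to 3′ on the gene's strand, and capitals mark matches to the motifs named after them. The windows are chr21:46097862-46098111 (plus strand) for COL6A2, chr2:215436069-215436318 (minus strand) for FN1, chr13:110307158-110307407 (minus strand) for COL4A1 and chr9:134641555-134641804 (plus strand) for COL5A1.
COL6A2: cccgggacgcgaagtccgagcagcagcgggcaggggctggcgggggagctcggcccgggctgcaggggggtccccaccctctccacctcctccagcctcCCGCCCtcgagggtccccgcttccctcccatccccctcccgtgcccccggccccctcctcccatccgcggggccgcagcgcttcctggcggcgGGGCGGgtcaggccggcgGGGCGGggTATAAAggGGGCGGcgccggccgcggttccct
FN1: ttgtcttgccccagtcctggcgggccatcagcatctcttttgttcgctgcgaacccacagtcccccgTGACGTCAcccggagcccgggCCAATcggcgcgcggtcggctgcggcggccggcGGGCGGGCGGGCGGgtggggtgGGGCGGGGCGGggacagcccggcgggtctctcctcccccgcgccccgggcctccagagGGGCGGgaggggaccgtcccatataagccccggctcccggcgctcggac
COL4A1: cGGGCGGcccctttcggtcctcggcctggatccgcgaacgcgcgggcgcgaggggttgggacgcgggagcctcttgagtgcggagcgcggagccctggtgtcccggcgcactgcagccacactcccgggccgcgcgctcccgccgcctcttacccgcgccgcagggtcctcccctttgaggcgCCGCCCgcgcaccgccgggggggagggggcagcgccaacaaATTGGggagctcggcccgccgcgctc
COL5A1: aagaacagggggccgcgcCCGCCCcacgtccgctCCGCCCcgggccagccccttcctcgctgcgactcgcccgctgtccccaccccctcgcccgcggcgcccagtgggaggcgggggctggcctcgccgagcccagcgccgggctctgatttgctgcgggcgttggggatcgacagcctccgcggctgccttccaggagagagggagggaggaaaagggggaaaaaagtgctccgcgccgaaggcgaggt

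Motifs were searched on both strands in the 250 bases before the start, for members and for all promoters alike. The full element of PPARγ with RXR, AGGTCANAGGTCA, was in none of the 32 members that have a window, against 0.0171% of 35116 promoters. Its hexamer AGGTCA alone was in 3 of the 32 members and in none of the windows shown, against 12.1% of all promoters. GGGCGG, the box read by Sp1, was in 24 of the 32 members, against 42.6% of all promoters. It occurs at 4 places in the COL6A2 window, at 6 partly overlapping places in that of FN1, at 2 in COL4A1 and at 2 in COL5A1. COL6A2 also has TATAAA at 32 bases before the start (10.7% of all promoters). The FN1 window holds the cAMP response element TGACGTCA at 183 bases before the start (1.65% of all promoters) and CCAAT at 162 bases (32% of all promoters). COL4A1 has CCAAT on the opposite strand, and COL4A1 and COL4A2 start 127 bases apart on opposite strands, so their 250-base windows share 126 bases. TGANTCA, read by AP-1, was in 4 of the 32 members, against 6.57% of all promoters, and in none of the windows shown. A match describes letters only and is not evidence of binding. The absence of a match tells nothing about binding either. The exact element of PPARγ with RXR was in only 6 of the 35116 promoters.

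The median deposited signal of an array was 37.2 and 52.2 for the combination, 46.4 and 54.3 for rosiglitazone, 37.6 and 44.6 for carboplatin, and 45.8 and 36.2 for control. Values below are levels on the scale of quantile normalized log2(signal + 16), and changes are differences of these levels with the standard error (SE) from limma. A gene counted as called, and is said to have risen or fallen, where its limma p-value, Benjamini-Hochberg adjusted over all 13338 probe sets tested, was under 0.05. Where a gene is counted once, its brightest probe set represents it. Probe sets differ in how brightly they bind, so levels are compared between arrays only.

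The labelled cell type was checked against marker genes. Of 7 markers of lung and simple epithelial cells 5 were tested, among them the keratin genes KRT8, at 10.69 to 11.39 over the 8 arrays, and KRT18, at 12.14 to 12.51. EPCAM and NKX2-1, NKX2-1 being a lung transcription factor, were below the filter on dim probe sets, at mean levels of 4.90 and 4.67. Of 8 fibroblast markers, 3 were tested (THY1, DCN and COL1A1) and none was called in the comparisons with rosiglitazone, while LUM, PDGFRA, PDGFRB, COL3A1 and FAP were below the filter. None of 5 endothelial and none of 5 white blood cell markers passed the filter. The summed level of the 8 fibroblast markers was 41.8 to 43.1 with the combination, 41.9 to 42.8 with rosiglitazone, 42.5 to 42.9 with carboplatin and 40.8 to 41.8 in control. The summed level of the 7 epithelial markers was 59.6 to 60.6 with the combination, 59.0 to 59.8 with rosiglitazone, 57.4 to 58.0 with carboplatin and 58.3 to 58.6 in control, and the part of either in the results below was not tested. KRT7, another keratin gene, was called in the comparison of arrays with and without rosiglitazone described next (0.56 ± 0.09, limma adjusted p = 0.0138). That call was lost without control 1 (adjusted p = 0.0687), carboplatin 1 (adjusted p = 0.0602) or combination 2 (adjusted p = 0.057). KRT7 also missed the threshold under 5 other alternatives, namely the deposited scaling (adjusted p = 0.0655), median scaling (adjusted p = 0.0789), no filter (adjusted p = 0.0811), no intensity trend (adjusted p = 0.161) and array brightness as a covariate (adjusted p = 0.0664). In RNA from whole cultures, fewer cells of a type and less RNA per cell cannot be told apart.

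The first comparison set the 4 arrays with rosiglitazone (combination and rosiglitazone alone) against the 4 without it (carboplatin alone and control), and is called here the rosiglitazone main effect. COL6A1 and COL6A2 of collagen VI, FN1 of fibronectin and COL4A1 of collagen IV rose, while EFEMP1, CSGALNACT1 and COL5A1 fell. The other collagen IV member, COL4A2, was not called. Of the 83 member probe sets 10 were called, where 0.885% of all probe sets were called. They were 7 rises and 3 falls, with 0.667% of all probe sets called higher and 0.217% lower. By gene, 4 of 42 rose and 3 fell. The count of 10 was 6 without control 1 and 6 without carboplatin 1. At an unadjusted p under 0.05 there were 34 member probe sets (41%), against 9.96% of all probe sets. Arrays with rosiglitazone all lay beyond those without it in 22 of 83 member probe sets (26.5%), against 6.15% of all. The members were chosen with earlier results of these data known. Shares of members beside all probe sets, here and below, are therefore description only. The median change of the 42 genes was 0.064, beside -0.009 over all probe sets tested, with changes of members in both directions. Splits by direction depend on the scaling, since the deposited scaling moves the median of all probe sets to 0.17 and gives 34 of the 42 genes a positive and 8 a negative change, where quantile normalization gave 24 higher and 18 lower. Directions below are relative to the quantile normalized arrays.

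**Figure D1:**
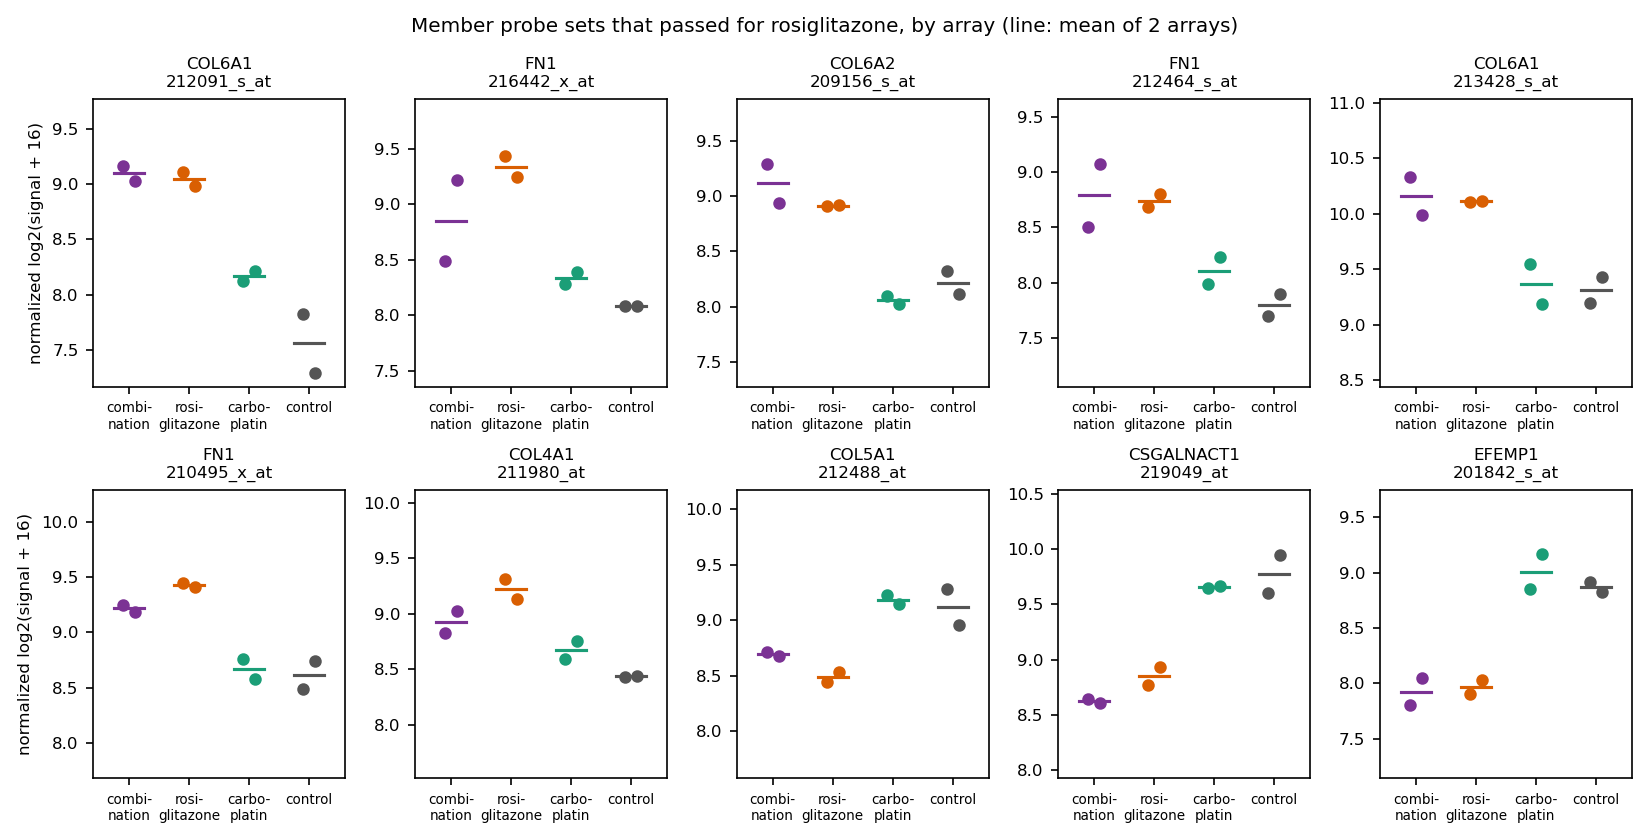
Levels of the 10 member probe sets called in the rosiglitazone main effect, 1 panel each, in normalized log2(signal + 16); points are single arrays, lines the mean of 2 arrays, and groups run from left to right as combination, rosiglitazone, carboplatin and control. In COL6A1, COL6A2, FN1 and COL4A1 the arrays with rosiglitazone lie above those without, and in COL5A1, EFEMP1 and CSGALNACT1 below; all panels span the same height, but at different levels.

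Both tested genes of collagen VI, COL6A1 for its α1 chain and COL6A2 for its α2 chain, rose, and COL6A1 had the largest change of any member probe set. The COL6A1 probe set 212091_s_at read 9.17 and 9.03 with the combination, 9.11 and 8.98 with rosiglitazone, 8.12 and 8.21 with carboplatin, against 7.83 and 7.29 in control. The brighter probe set 213428_s_at of COL6A1 read 10.33 and 9.98 with the combination, 10.11 and 10.12 with rosiglitazone, 9.55 and 9.19 with carboplatin, against 9.19 and 9.42 in control. On both probe sets every array with rosiglitazone lay above every array without it. COL6A1 rose by 1.21 ± 0.12 on the first (2.31-fold, limma adjusted p = 0.00136) and by 0.80 ± 0.11 on the second (1.74-fold, adjusted p = 0.00509). All 5 tested COL6A1 probe sets were higher, by 0.44 to 1.21.

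COL6A2 read 9.29 and 8.94 with the combination, 8.91 and 8.92 with rosiglitazone, 8.09 and 8.03 with carboplatin, against 8.32 and 8.12 in control. It rose by 0.88 ± 0.11 (1.84-fold, limma adjusted p = 0.00282), again with no overlap. A second, dimmer COL6A2 probe set was at -0.03 and so differed in sign. COL6A1 and COL6A2 lie on chromosome 21 with 0 protein-coding genes between them in RefSeq.

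COL4A1, the α1 chain of collagen IV, read 8.83 and 9.02 with the combination, 9.32 and 9.13 with rosiglitazone, 8.59 and 8.75 with carboplatin, against 8.43 and 8.44 in control. The arrays with rosiglitazone were higher throughout, although the lowest of them (8.83) was close to the highest without (8.75). COL4A1 rose by 0.52 ± 0.10 (1.43-fold, limma adjusted p = 0.0317). A second COL4A1 probe set, 211981_at, was at 0.37 and was not called. The neighbour of COL4A1, COL4A2 for the α2 chain, was at 0.27 ± 0.08 (adjusted p = 0.235), with arrays that did not overlap but no call. COL4A1 was called without combination 1 and lost the call without each of the other 7 arrays, where its change lay between 0.47 and 0.57. Among the other basement membrane members, the laminin chain genes LAMA5, LAMB1, LAMB3 and LAMC1 and the anchoring fibril collagen gene COL7A1 were not called. Over the 8 arrays LAMA5 ran from 8.41 to 8.71, LAMB1 from 8.34 to 8.78, LAMB3 from 5.45 to 6.28, LAMC1 from 9.10 to 9.52 and COL7A1 from 7.46 to 8.47. Of the 9 collagen IV, VI and VII and laminin genes tested, 6 were higher and 3 lower, with 3 called as rises and a median of 0.27.

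Of the fibrillar collagens COL5A1 fell. It encodes a chain of collagen V, which sits inside collagen I fibrils. COL5A1 read 8.71 and 8.68 with the combination, 8.44 and 8.53 with rosiglitazone, 9.23 and 9.14 with carboplatin, against 9.28 and 8.96 in control. It fell by 0.56 ± 0.10 (0.677 of the level without rosiglitazone, limma adjusted p = 0.0222), and all 3 of its tested probe sets were lower. Every array with rosiglitazone was below every array without it. The call on this probe set, 212488_at, was kept without control 2 and lost without each of the other 7 arrays, where its change lay between -0.58 and -0.48. Without combination 1 another COL5A1 probe set, 212489_at, was called (-0.76, limma adjusted p = 0.0264). COL5A2, the partner chain, ran from 8.49 to 9.20 over the 8 arrays and COL1A1, a chain of collagen I, from 6.95 to 7.37, and neither was called. COL1A2 and COL3A1 were below the filter on dim probe sets, with mean levels of 5.35 and 4.87.

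Fibronectin, encoded by FN1, is the glycoprotein that links integrins to collagen. Its probe set 210495_x_at read 9.25 and 9.19 with the combination, 9.45 and 9.41 with rosiglitazone, 8.76 and 8.57 with carboplatin, against 8.49 and 8.74 in control. FN1 rose by 0.68 ± 0.10 on this probe set (1.60-fold, limma adjusted p = 0.00517). Probe sets 216442_x_at (0.89 ± 0.14, adjusted p = 0.0138) and 212464_s_at (0.81 ± 0.13, adjusted p = 0.0162) of FN1 were also called. All 5 tested FN1 probe sets were higher, by 0.23 to 0.89. The name ending x_at marks a probe set with probes that may also bind other, unrelated sequences.

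The arrays of the 3 called FN1 probe sets did not overlap, but those of the combination differed between themselves on 2 of them. On 216442_x_at FN1 read 8.49 and 9.22 with the combination, 9.43 and 9.25 with rosiglitazone, 8.28 and 8.39 with carboplatin, against 8.08 and 8.08 in control. On 212464_s_at it read 8.51 and 9.07 with the combination, 8.68 and 8.80 with rosiglitazone, 7.99 and 8.24 with carboplatin, against 7.70 and 7.90 in control. The call on 210495_x_at was kept without each of the 8 arrays. That on 216442_x_at was lost without control 1 (adjusted p = 0.0597), control 2 (adjusted p = 0.0589), rosiglitazone 1 (adjusted p = 0.0645) or carboplatin 1 (adjusted p = 0.0602). That on 212464_s_at was lost without control 1 (adjusted p = 0.0758), rosiglitazone 2 (adjusted p = 0.0595) or carboplatin 1 (adjusted p = 0.0733).

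EFEMP1 encodes fibulin-3, a secreted glycoprotein of elastic tissue and basement membranes, and CSGALNACT1 encodes an N-acetylgalactosaminyltransferase that starts and extends chondroitin sulfate chains. Both fell. EFEMP1 read 7.81 and 8.05 with the combination, 7.90 and 8.03 with rosiglitazone, 8.85 and 9.17 with carboplatin, against 8.92 and 8.83 in control. CSGALNACT1 read 8.65 and 8.61 with the combination, 8.77 and 8.93 with rosiglitazone, 9.65 and 9.67 with carboplatin, against 9.61 and 9.94 in control. For both genes the arrays fell into a low set with rosiglitazone and a high set without, and the carboplatin arrays overlapped those of control. EFEMP1 fell by 0.995 ± 0.11 (0.502 of the level without rosiglitazone, limma adjusted p = 0.00191), and a second EFEMP1 probe set, not called, was at -0.75. CSGALNACT1, read by 1 probe set, fell by 0.98 ± 0.10 (0.508 of the level without rosiglitazone, limma adjusted p = 0.00127). Both calls were kept without each of the 8 arrays and were lost with the deposited scaling, at -0.80 for EFEMP1 (adjusted p = 0.285) and -0.78 for CSGALNACT1 (adjusted p = 0.289).

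The other matrix glycoproteins were not called in the reported fit. SPARC, a collagen-binding matricellular protein, ran from 8.18 to 8.56 in the arrays with rosiglitazone and from 8.37 to 9.17 in those without, so the arrays overlapped on its brightest probe set. On the dimmer SPARC probe set 212667_at the arrays with rosiglitazone were all lower, at -0.58 ± 0.13 (limma adjusted p = 0.0655), and this probe set was called when the filter was set at the 60th percentile (adjusted p = 0.0481). CCN1, another matricellular protein, ran from 7.41 to 7.97 with rosiglitazone and from 7.73 to 8.43 without. SPP1 (osteopontin, 8.22 to 8.63 over the 8 arrays), THBS1 (thrombospondin 1, 6.21 to 6.99) and CCN2 (5.49 to 6.26) were not called either, and TNC (tenascin C, mean level 4.87) was below the filter. Of the 8 genes of glycoproteins, matricellular proteins and chondroitin sulfate synthesis tested, 3 were higher and 5 lower, with 1 rise and 2 falls called and a median of -0.34.

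None of the 9 matrix receptors was called in the reported fit, although most had a positive change with rosiglitazone. Integrins are pairs of an α and a β chain. Those of αV with β3 or β5, α5 with β1, α3 with β1, and α6 with β1 or β4 bind different matrix proteins. ITGAV, the αV chain, which pairs with β chains to bind vitronectin and fibronectin, read 8.44 and 8.65 with the combination, 8.63 and 8.55 with rosiglitazone, 7.95 and 8.15 with carboplatin, against 7.84 and 8.13 in control. The arrays with rosiglitazone were all higher, and the change was 0.55 ± 0.11 (1.46-fold), just outside the threshold (limma adjusted p = 0.0508). ITGAV was called with a pseudocount of 64 (adjusted p = 0.0451) and with the filter at the 60th percentile (adjusted p = 0.0342). ITGA3, the α3 chain of a laminin receptor, was at 0.33 ± 0.09 (adjusted p = 0.159), with levels of 9.48 to 9.55 with rosiglitazone and 9.06 to 9.28 without, which did not overlap. Changes of ITGA2 (0.36 ± 0.14), ITGA6 (0.38 ± 0.15), ITGB4 (0.28 ± 0.12) and ITGB5 (0.29 ± 0.11) had an unadjusted p under 0.05 and overlapping arrays. ITGA5, the α5 chain of the fibronectin receptor, ran from 7.18 to 7.82 over the 8 arrays and ITGB1, its β1 partner, from 11.13 to 11.41. In all 7 of 9 receptors were higher and 2 lower, with a median change of 0.29 beside -0.009 over all probe sets. CD44, the hyaluronan receptor, had 8 tested probe sets and no call, and the sign depended on the scaling, with 8 of 8 lower after quantile normalization, 6 of 8 lower with median scaling and 7 of 8 higher with the deposited scaling.

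Proteases, their inhibitors and crosslinking enzymes gave no call in the reported fit. PLAUR, the receptor of urokinase, had the smallest p among them. It read 8.54 and 8.34 with the combination, 8.53 and 8.52 with rosiglitazone, 7.76 and 7.87 with carboplatin, against 8.0 and 8.31 in control, so that the 4 arrays with rosiglitazone lay just above the rest. Its change was 0.50 ± 0.11 (limma adjusted p = 0.0705), and it was called with the filter at the 60th percentile (adjusted p = 0.0474). The other tested PLAUR probe sets, 211924_s_at and 214866_at, were at 0.02 and 0.08 and were not called. Urokinase itself (PLAU), the matrix metalloproteinases MMP2 and MMP14, their inhibitors TIMP1, TIMP2 and TIMP3, and the lysyl oxidase relative LOXL2 were not called. Over the 8 arrays PLAU ran from 9.84 to 10.41, MMP2 from 6.44 to 6.91, MMP14 from 6.37 to 7.11 and LOXL2 from 10.90 to 11.08. TIMP1 ran from 10.81 to 11.16, TIMP2 from 7.34 to 7.91 and TIMP3 from 5.55 to 5.84. Of these 8 genes 5 were higher and 3 lower, with a median of 0.067. MMP1, a collagenase (mean level 4.23), and the crosslinking enzyme gene LOX (4.76) were below the filter.

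None of the 5 tested genes of the cadherin, vimentin and EMT factor group was called in the rosiglitazone main effect, while FN1 and KRT7, described above, were. CDH1, which encodes E-cadherin, read 7.08 and 7.10 with the combination, 6.80 and 7.11 with rosiglitazone, 6.13 and 6.71 with carboplatin, against 6.78 and 6.84 in control. Its change was 0.41 ± 0.15 (limma adjusted p = 0.378), and the rosiglitazone and control arrays overlapped. VIM, encoding the intermediate filament vimentin, ran from 12.88 to 13.06 over the 8 arrays. CDH2 (N-cadherin) ran from 7.78 to 8.36, ZEB1 from 6.98 to 7.64 and SNAI2 from 7.55 to 7.96, the last 2 being EMT transcription factors. Of these 5 genes 3 were higher and 2 lower, with a median of 0.075. With the deposited scaling, 5 of these 5, 9 of the 9 receptors, 9 of the 9 collagen IV, VI and VII and laminin genes, 7 of the 8 protease and crosslinking genes and 1 of the 3 fibrillar collagens were higher. Over all members the 35 genes not called changed by -0.47 to 0.55.

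**Figure D2:**
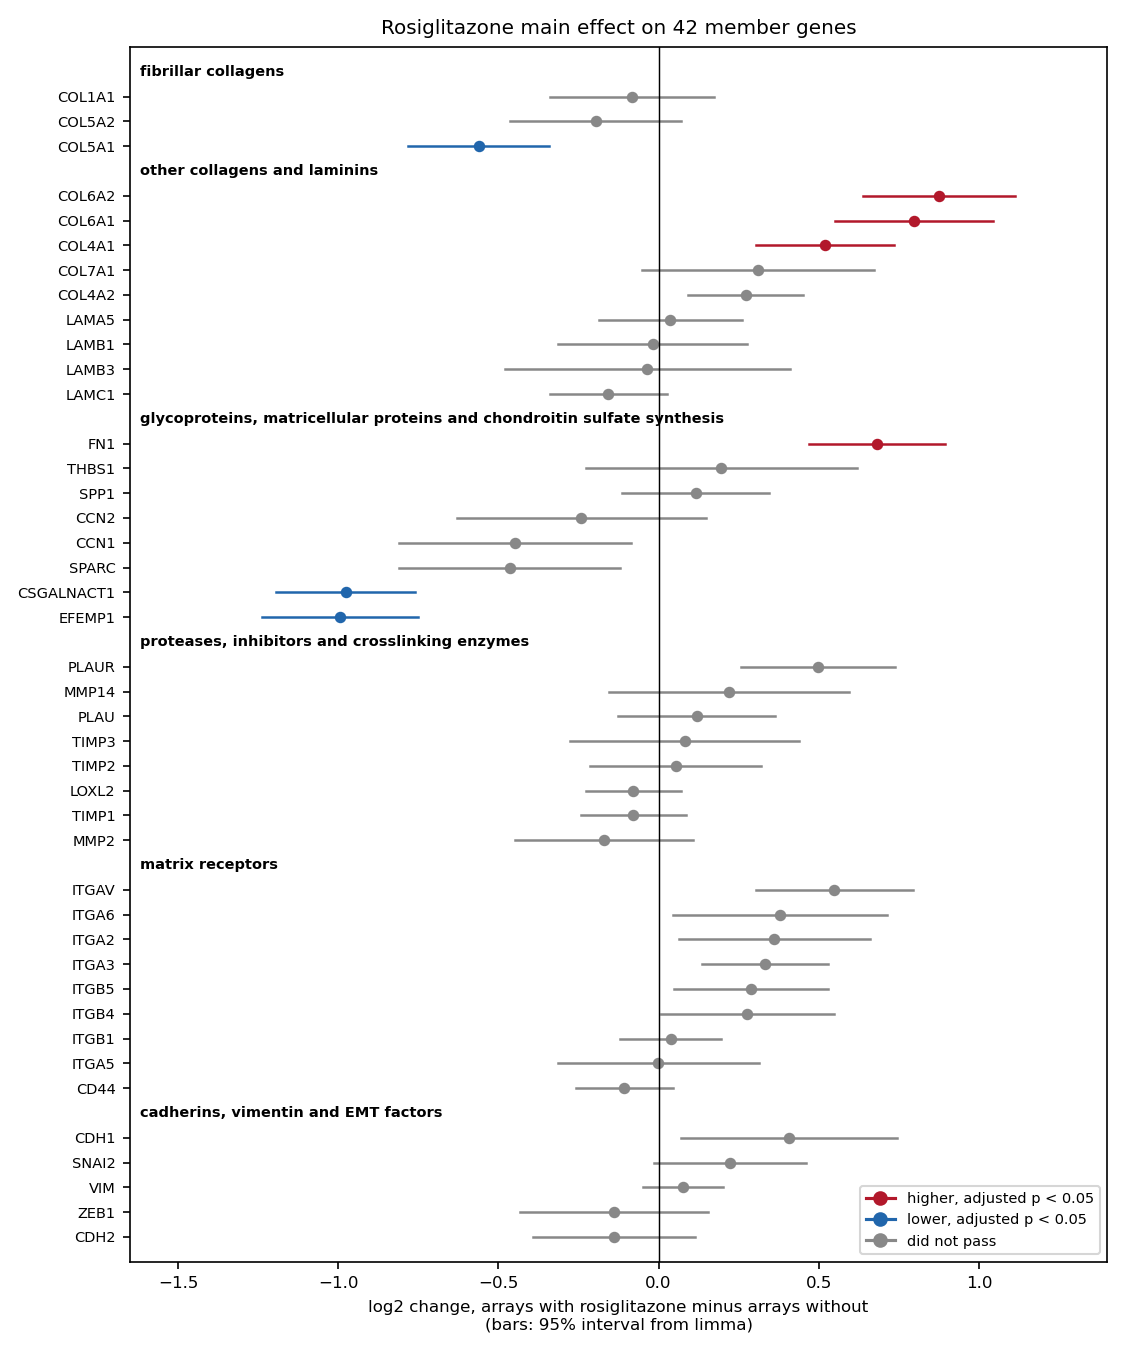
Rosiglitazone main effect of the 42 tested member genes, each by its brightest probe set, grouped by role; the x axis is the log2 change of arrays with rosiglitazone minus arrays without, and bars are the 95% interval from limma. COL6A2, COL6A1, FN1 and COL4A1 (red, called higher) stand right of 0 and COL5A1, CSGALNACT1 and EFEMP1 (blue, called lower) left of it, while the 35 genes not called (grey) lie between -0.47 and 0.55.

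Of the 23 member genes with more than 1 tested probe set, 17 had the same sign on all of them in the rosiglitazone main effect. COL6A2, LOXL2, CDH2, PLAU, COL5A2 and LAMB1 had probe sets that differed in sign. ITGB5 was higher on 4 of 4 and THBS1 on 3 of 3, with no call on any.

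**Figure D3:**
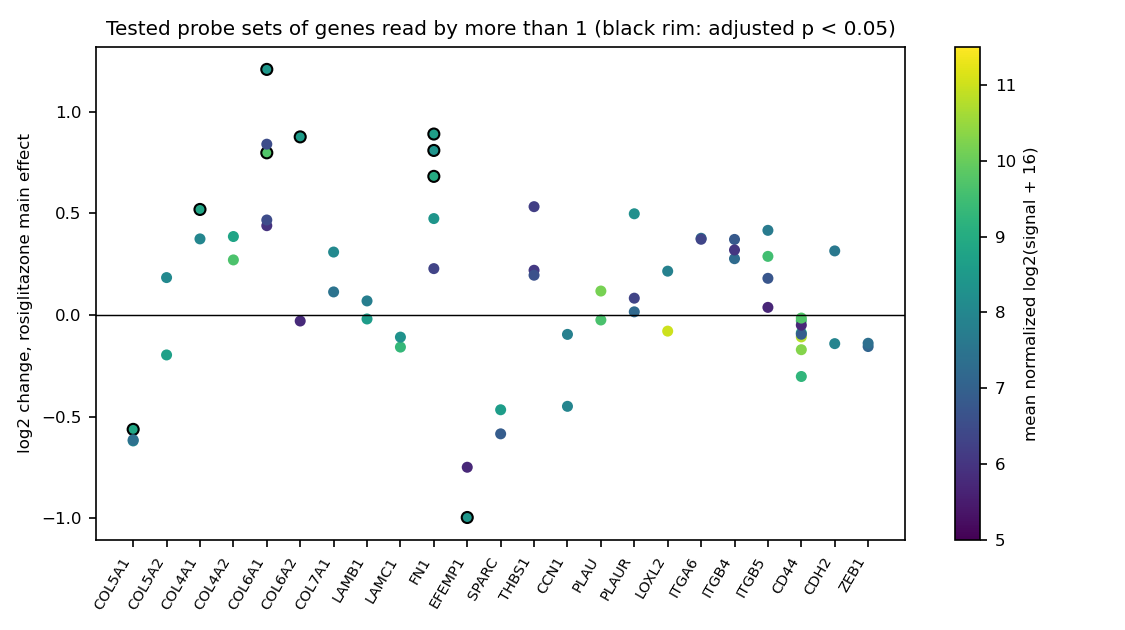
Rosiglitazone main effect (y axis, log2 change) of each tested probe set of the 23 member genes with more than 1; colour gives the mean level over the 8 arrays in normalized log2(signal + 16), and a black rim marks an adjusted p under 0.05. COL6A1 (5 probe sets) and FN1 (5) are above 0 throughout and COL5A1 (3) and EFEMP1 (2) below, while the dimmer COL6A2 probe set is at -0.03.

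Each drug was also set against control alone, which asked what the single agents and the combination did to the same genes. The combination against control had 4 member probe sets called, 2 higher and 2 lower, where 0.225% of all probe sets were called. At an unadjusted p under 0.05 there were 23 member probe sets (27.7%), against 8.42% of all. COL6A1 (212091_s_at) rose by 1.54 ± 0.18 (2.91-fold, limma adjusted p = 0.00577) and COL6A2 by 0.90 ± 0.15 (1.86-fold, adjusted p = 0.0465). CSGALNACT1 fell by 1.15 ± 0.14 and EFEMP1 by 0.94 ± 0.16. The other COL6A1 probe set (0.85 ± 0.16, adjusted p = 0.068) and FN1 on 212464_s_at (0.99 ± 0.19, adjusted p = 0.0722) did not pass. Nor did FN1 on 210495_x_at (0.60 ± 0.14) or on 216442_x_at (0.77 ± 0.20), COL4A1 (0.49 ± 0.14) and COL5A1 (-0.42 ± 0.14). The count of 4 was 2 without control 1, 1 without control 2, 2 without rosiglitazone 1 or 2, and 1 without combination 1 or 2. Without combination 1 none of the 4 reported calls was kept, and the 1 call was FN1 on 216442_x_at.

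Rosiglitazone against control had 6 member probe sets called, 4 higher and 2 lower, where 0.36% of all probe sets were called. A further count, at an unadjusted p under 0.05, was 32 member probe sets (38.6%), against 10.4% of all. COL6A1 (212091_s_at) rose by 1.49 ± 0.18 (2.80-fold, limma adjusted p = 0.00691). FN1 rose by 1.26 ± 0.20 on 216442_x_at (2.40-fold, adjusted p = 0.033) and by 0.81 ± 0.14 on 210495_x_at (1.76-fold, adjusted p = 0.0384). COL4A1 rose by 0.79 ± 0.14 (1.72-fold, adjusted p = 0.0415). CSGALNACT1 fell by 0.93 ± 0.14 and EFEMP1 by 0.91 ± 0.16. COL6A2 (0.70 ± 0.15, adjusted p = 0.106), the brighter COL6A1 probe set (0.80 ± 0.16, adjusted p = 0.0649), FN1 on 212464_s_at (0.94 ± 0.19) and COL5A1 (-0.63 ± 0.14, adjusted p = 0.114) did not pass. The count of 6 was 2 without control 1, 1 without control 2, 0 without rosiglitazone 1 or 2, and 3 without carboplatin 2. These 2 comparisons share the control arrays, and no test of their likeness is given.

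Carboplatin against control had 0 of 83 member probe sets called by limma, where 0.015% of all were called. At an unadjusted p under 0.05 there were 2 member probe sets (2.41%), against 5.17% of all probe sets, and no member was called under any alternative run. COL6A1 on 212091_s_at had the smallest p, at 0.61 ± 0.18 (adjusted p = 0.879), with carboplatin arrays at 8.12 and 8.21 against 7.83 and 7.29 in control. The brighter COL6A1 probe set gave overlapping arrays, at 9.55 and 9.19 with carboplatin against 9.19 and 9.42 in control. By brightest probe set, arrays did not overlap in 15 of 42 genes, none of them called. Smallest in p among these were PLAUR (-0.34 ± 0.15), ITGB1 (0.22 ± 0.10), MMP2 (-0.37 ± 0.18), CDH2 (-0.34 ± 0.16) and TIMP2 (0.33 ± 0.17). Arrays did not overlap in 35 of 83 member probe sets (42.2%) and in 35.1% of all probe sets in this comparison, so a lack of overlap with 2 arrays a group is common.

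**Figure D4:**
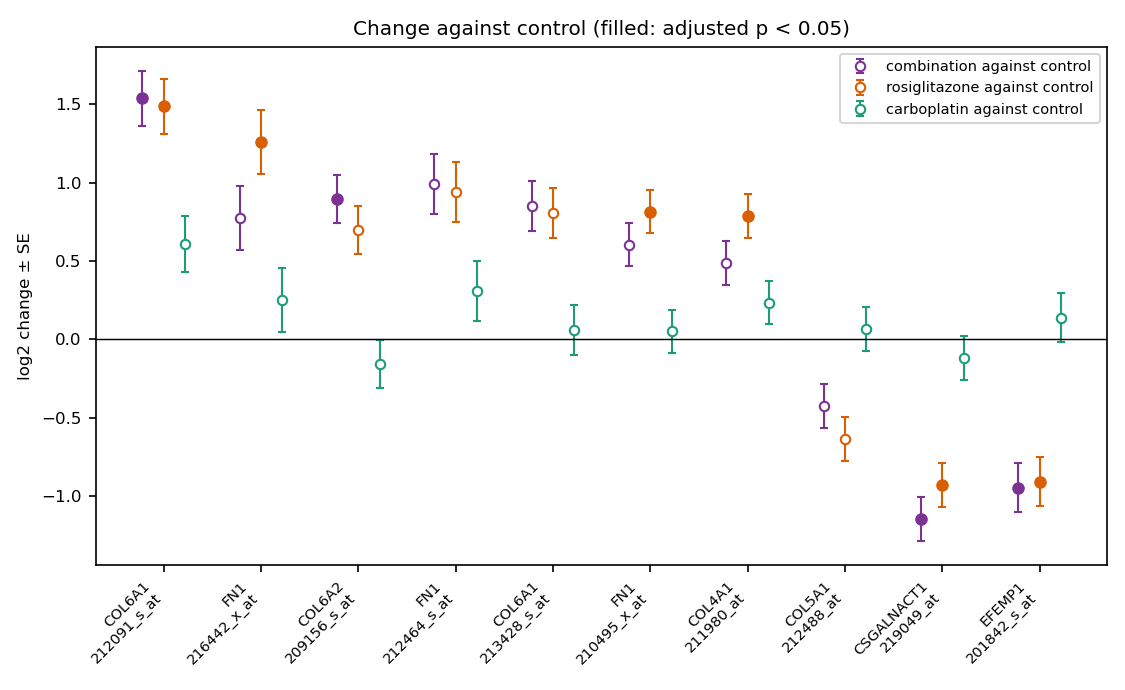
Change against control (log2 change ± SE, 2 arrays a group) of the 10 probe sets called in the rosiglitazone main effect, for the combination, rosiglitazone and carboplatin; filled points have an adjusted p under 0.05. Combination and rosiglitazone points lie on the same side of 0 for all 10, and no carboplatin point is filled.

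Combination against carboplatin asked what rosiglitazone added to the platinum drug. Its change is a difference between arrays that the rosiglitazone against control change does not use. Its SE and p-values, however, rest on a spread estimated from all arrays, which were also normalized together. It is therefore not an independent repeat of the rosiglitazone against control comparison. Of 83 member probe sets 3 were called, 1 higher and 2 lower, where 0.157% of all probe sets were called, and 23 (27.7%) had an unadjusted p under 0.05, against 6.43% of all. COL6A2 rose by 1.06 ± 0.15 (2.08-fold, limma adjusted p = 0.0295). CSGALNACT1 fell by 1.03 ± 0.14 and EFEMP1 by 1.08 ± 0.16. COL6A1 did not pass on 212091_s_at (0.93 ± 0.18, adjusted p = 0.0973) or 213428_s_at (0.79 ± 0.16, adjusted p = 0.121). FN1 (0.55 ± 0.14 on 210495_x_at, 0.68 ± 0.19 on 212464_s_at and 0.52 ± 0.20 on 216442_x_at), COL5A1 (-0.49 ± 0.14) and COL4A1 (0.25 ± 0.14) did not pass either. The 10 probe sets called in the rosiglitazone main effect had the same sign with and without carboplatin, which is a description only, since they were chosen on the mean of both. The count of 3 was 1 without rosiglitazone 1, 0 without carboplatin 1 or 2, 0 without combination 1 and 1 without combination 2.

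Whether carboplatin altered the rosiglitazone response was tested by the interaction of the drugs, which is the combination against carboplatin minus rosiglitazone against control. No member was called, and 0 of 13338 probe sets were called by limma, with 5.97% of all probe sets and 6 of 83 member probe sets (7.23%) at an unadjusted p under 0.05. Among the 10 probe sets called in the rosiglitazone main effect the smallest p-values were those of COL4A1 (-0.53 ± 0.20), FN1 on 216442_x_at (-0.74 ± 0.29) and COL6A1 on 212091_s_at (-0.56 ± 0.25), all with an adjusted p of 0.821. For CSGALNACT1 the 95% interval of the interaction ran from -0.54 to 0.33, for EFEMP1 from -0.66 to 0.31 and for COL6A2 from -0.11 to 0.83, so differences of these sizes between the 2 settings cannot be told from 0 with 2 arrays a group. Combination against rosiglitazone gave 0 called member probe sets (0.0225% of all were called), with 7 members' probe sets at an unadjusted p under 0.05 (8.43%, against 4.54% of all). FN1 on 216442_x_at (-0.49 ± 0.20) and COL4A1 (-0.30 ± 0.14) were lower with the combination and were not called. The carboplatin main effect, the 4 arrays with carboplatin against the 4 without, gave 0 called member probe sets (0.03% of all were called) and 4 at an unadjusted p under 0.05 (4.82%, against 4.02% of all).

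Other genes of the same pathways were counted in the rosiglitazone main effect, and none was called. Of 8 genes of fibulins and the elastic fibre tested, 4 were higher and 4 lower, with the smallest p for LTBP1, which binds latent TGF-β (0.48 ± 0.14), and ELN, which encodes elastin (0.52 ± 0.23). Of 19 further genes of chondroitin and heparan sulfate synthesis 7 were higher and 12 lower, which became 16 higher and 3 lower under the deposited scaling, and no other gene of this synthesis was called beside CSGALNACT1. The smallest p-values there were those of the chondroitin sulfotransferases CHST11 (0.32) and CHST15 (-0.32). Proteoglycan genes were higher in 7 of 10 cases, led by the glypican GPC1 (0.35) and the syndecan SDC4 (0.26).

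Further collagens and collagen enzymes were higher in 6 of 11 cases, led by the prolyl hydroxylase subunit P4HA2 (0.31) and by BMP1, a procollagen protease whose 3 tested probe sets differed in sign (0.24). Further laminins, nidogens and integrins were higher in 2 of 5 cases. Smallest in p among them were the integrin β chains ITGB2, which was lower (-0.28), and ITGB3 (0.12). Further proteases and inhibitors were higher in 4 of 9 cases, led by ADAM15 (0.55) and the transglutaminase TGM2 (0.21).

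TGF-β, the growth factor best known for driving matrix synthesis and EMT, had 13 ligand, receptor and target genes tested, 7 higher and 6 lower with a median of 0.015. ID2 (-0.55 ± 0.12, limma adjusted p = 0.0771) and ID3 (0.46), both inhibitors of helix-loop-helix factors, came nearest to the threshold and had opposite signs. Among 9 further epithelial and mesenchymal genes 6 were higher, led by the desmosome gene DSP (0.58 ± 0.14, adjusted p = 0.117), with the EMT factor gene TWIST1 at -0.40. With the deposited scaling 10 of the 13 TGF-β genes, 8 of these 9, 6 of the 8 elastic fibre genes, 9 of the 10 proteoglycans, 9 of the 11 collagen genes, 4 of the 5 laminin, nidogen and integrin genes and 8 of the 9 protease genes were higher.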

How the data were processed

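The deposited values are array intensity, 1 linear signal per probe set, and how the authors' software made and scaled them is not given in the sources used here. Per the labels' protocols, cDNA was primed with oligo-dT and transcribed to biotinylated RNA. Groups came from sample titles, with 8 arrays and 2 per group, a number that limits the precision.

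The scale was log2(signal + 16), which understates changes at low signal, and values were quantile normalized with limma 3.58.1 in R 4.3.3. Control probe sets (68) and those with a mean below the 40th percentile were left out. Of 22283 probe sets 19071 have 1 gene symbol in the annotation used, 1043 several and 2169 none, and 19059 matched RefSeq (GRCh38.p14) by Entrez identifier. LAMA3 was not analysed here.

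All arrays entered one linear model with a term for each group (lmFit, eBayes with an intensity trend, 11.1 degrees of freedom in all), with 8 two-sided contrasts and Benjamini-Hochberg adjustment over all probe sets. The fit was tested on simulated data with independent noise, which checks the code and not the calls reported here. A gene is represented by its brightest probe set. Members with a called probe set are given in every array, and for each contrast with control and both main effects the 5 members of smallest p whose arrays do not overlap are named. From each further list the called genes and the 2 of smallest p in the rosiglitazone main effect are named. The members and lists were chosen with earlier results of these data known. Alternatives were 2 scalings, 2 pseudocounts, 2 filters, no trend, a replicate block, a brightness covariate and leaving out each array.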

Additional observations from a re-analysis of the deposited data

How the results depend on the processing

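In the rosiglitazone main effect none of the 10 called member probe sets turned its sign under the 17 alternatives. Of the 42 member genes, by their brightest probe set, 13 turned sign under at least 1 alternative, 10 of them with the deposited scaling, and none of these had a reported change above 0.157 in size. The number of member probe sets called in the rosiglitazone main effect, 10 as reported, was 5 with the deposited scaling (4 of them among the 10), 6 when no filter was used and 4 without the intensity trend. A filter at the 60th percentile gave 15, and kept the 10 and added a probe set each of ITGAV, PLAUR, SPARC, FN1 and COL6A1. For rosiglitazone against control (6 as reported) it was 1 under each other scaling (deposited and median), 0 unfiltered, 0 without the trend and 3 with array brightness as a covariate. For the combination against control (4 as reported) the counts were 1 and 1 under these scalings, 2 unfiltered and 0 without the trend. For the combination against carboplatin (3 as reported) each of these 4 settings gave 0. Leaving out 1 array at a time gave 6 to 10 calls in the rosiglitazone main effect, 0 to 7 in rosiglitazone against control, 1 to 3 in the combination against control and 0 to 4 in the combination against carboplatin. The causes of these shifts were not tested, except that leaving out an array reduces the samples and the filters change how many probe sets are adjusted for. In the rosiglitazone main effect COL6A1 on 212091_s_at and COL6A2 were called in all 17 alternatives. CSGALNACT1, EFEMP1 and COL6A1 on 213428_s_at were called in 16, FN1 on 210495_x_at in 15, on 216442_x_at and 212464_s_at in 9 each, COL5A1 on 212488_at in 6 and COL4A1 in 5. The calls of CSGALNACT1 (-0.78, adjusted p = 0.289) and EFEMP1 (-0.80, adjusted p = 0.285) were lost with the deposited scaling. With the deposited scaling COL5A1 was at -0.37 (adjusted p = 0.925) and COL4A1 at 0.72 (adjusted p = 0.427), and the median of all probe sets moved to 0.171. ADAM15 was called in 1 alternative, at 0.95 without control 1. Deviations of same-numbered arrays from their group means had correlations of -0.11 to 0.253 between groups, the highest being that of carboplatin with the combination. The numbers were not taken as pairs in the reported fit. With the replicate number as a block the counts of member calls were 12, 5, 5 and 3 in the order above, and in the rosiglitazone main effect the block added ITGAV (adjusted p = 0.0462) and COL5A1 on 203325_s_at (adjusted p = 0.0294) to the 10. Over all probe sets the rosiglitazone main effect gave 118 calls, 70 to 91 without 1 array and 36 to 142 under the other alternatives. Rosiglitazone against control gave 48 calls over all probe sets, 3 to 49 without 1 array and 6 to 70 otherwise.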
